A study of Arabidopsis thaliana with 42 samples.

Results

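The transcripts described here were abundant in the vegetative shoot apex of Arabidopsis thaliana and low in the apex at the transition to flowering. They were chosen on that difference: the mean of log2(signal + 8) in the transition apex had to be lower than in the vegetative apex by at least 2, which is 4-fold on that scale, and the mean vegetative apex signal had to be over 40. Of 22746 probe sets other than array controls, 181 met both conditions. With the glucosinolate gene BCAT4, the endoplasmic reticulum body genes PYK10, JAL22, JAL33 and JAL34, the anthocyanin gene DFR and the stress regulators STZ and ORA47 left out, 173 members remained; NAI2, the ninth gene on the list of exceptions, did not meet the conditions. The annotation gave 1 gene to 57 of the 173 (56 different genes, since the copper amine oxidase gene AT1G31710 had 2 probe sets), several genes to 4 and none to 112. Those 112 are given by probe set, without a name or a role.

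The study profiled shoots and stems in 42 samples, 14 groups of 3, each on its own Affymetrix array. Wild-type Col-0 gave 7 groups: the hypocotyl, the vegetative apex, the vegetative apex with young leaves, the transition apex before bolting, the inflorescence apex after bolting, the first node and the stem's second internode. The node samples held some stem, side shoot and cauline leaf base, and the Col-0 inflorescence samples held young flowers beside the apex. The other 7 groups were inflorescence apices of mutants in the Col-0 background: clv3-7 (meristem size), lfy-12 and ufo-1 (floral meristem identity), and ap1-15, ag-12, ap2-6 and ap3-6 (floral organ identity). Every group was grown under constant illumination on soil, at 23 °C and 65% relative humidity, and the labels give no ages. They do not say that replicates came from separate plants either, so p-values measure only how far replicate samples spread, and that spread may be technical.

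The vegetative apex makes leaves, and after floral induction the same meristem makes flowers and its stem elongates. Tissue around a vegetative apex includes leaf primordia and young petioles, where aliphatic glucosinolates, sulfur-rich defence compounds that myrosinases activate, and anthocyanins, glycosylated pigments, can be made. In whole samples, fewer cells of a type and less RNA per cell cannot be told apart. Median signals ran from 36.2 to 45.7 per array, replicates correlated with each other at 0.986 to 0.994, and no arrays were identical. The 3 node and 3 Col-0 inflorescence arrays, whose titles share a suffix, stood apart in the added bacterial control dap, at 8.07 and 7.71 on the log2 scale against 3.20 on average over the other 36 arrays. The 3'/5' signal ratio of actin, GAPDH and ubiquitin controls, a measure of RNA integrity, was 0.40 (log2) in the vegetative apex, 0.44 with young leaves, 0.49 in the transition apex, 0.74 in the Col-0 inflorescence apex and 0.81 in the hypocotyl. Of the markers set for other cell types few had a named probe set: 2 of 12 for the shoot meristem, 2 of 10 for roots, 4 of 7 for myrosin and guard cells, 1 of 4 for trichomes, 2 of 6 for flower organs and 0 of 5 for seeds. Their summed mean signals in the vegetative and transition apex were 36.4 and 41.4 for the meristem, 24.01 and 16.2 for roots, 182 and 142 for myrosin and guard cells, 18.4 and 30.4 for trichomes, and 50.2 and 102 for flower organs. Markers within a sum differed. For flower organs SPT rose from 45.02 to 98.5, while AMS read 5.22 and 3.46. For myrosin and guard cells STOMAGEN fell from 81.1 to 43.5 and FMA fell less, while SPCH read 69.7 and 70.9. For the meristem LAS read 29.7 and 35.6, and CLV3 6.66 and 5.85. No marker had a signal of 0, but CLV3, AMS and MUTE had means under the offset of 8 in both groups. EXPA7, a root marker, was under it in the transition apex. The part of the markers in the results was not tested.

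The difference that chose the members ran from -5.62 to -2.01 with a median of -2.53 (log2), against a median of 0.00 over all probe sets. It is a description, not a test. In all 173 members every transition array lay below every vegetative array; over all probe sets this held for 22.1%. In 42 members the mean transition signal was below the added offset of 8, so that the offset sets much of the size of their difference. Just inside the limit lay AT1G62290 (-2.01), AT1G74450 (-2.01) and 250633_at (-2.02), and just outside AT5G11420 (-1.99), AT1G73600 (-1.99) and AT5G66650 (-1.98). On the limit of signal, AT3G10930 (40.2) and 261453_at (42.3) were inside, while XTH18 (39.6) and 263320_at (38.2) were outside.

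AT2G25450 had the lowest value of all members, -5.62; it encodes the 2-oxoglutarate-dependent dioxygenase that hydroxylates the side chain of alkenyl glucosinolates. Its signals were 679, 669.7 and 732 on the vegetative apex arrays and 8.22, 4.83 and 5.82 on the transition apex arrays. With young leaves they were 501, 524 and 509, and in the Col-0 inflorescence apex 0.59, 7.74 and 2.62. The groups with vegetative apices and the later apices did not overlap, and the later signals were below or close to the offset. The other organs were all high, with 1369.8, 1600.0 and 1398 in the hypocotyl, 755, 836 and 718 in the node and 151, 149 and 144 in the internode. The 3 members with the most similar pattern over the 14 group means were 249866_at, with a correlation of 0.99, 252011_at and 251524_at; none has a named gene.

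The largest signals in the vegetative apex belonged to probe sets with no named gene. For 266415_at the vegetative arrays read 1504, 1464 and 1461 and the transition arrays 235, 237 and 216. It kept a moderate signal in the Col-0 inflorescence apex, 214, 209.5 and 198, and was near background in the stem, 17.6, 17.4 and 20.9 in the node and 1.79, 10.6 and 21.5 in the internode. No other member was closer to it than UF3GT, at a correlation of 0.72 over the group means. For 249866_at the vegetative arrays read 1318, 1299.9 and 1225, the transition arrays 19.02, 23.3 and 23.6 and the node arrays 2042, 2130.2 and 2189, so this transcript was lowest in the later apices and highest in the node. The other 6 with the highest vegetative signals were 253660_at, 259382_s_at, 245891_at, 263706_s_at, 247925_at and 254687_at, with means from 789.9 to 1265.

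Members for pigment and stress metabolism had lower but still clear signals in the transition apex. UF3GT, a glycosyltransferase that decorates anthocyanins, had signals of 220.1, 234 and 199.9 in the vegetative apex and 55.2, 40.8 and 47.7 in the transition apex. AT4G14090, the anthocyanin 5-O-glucosyltransferase gene, had 211, 209.6 and 222 in the vegetative apex and 35.6, 42.2 and 44.7 in the transition apex. MT1C, a metallothionein, a small metal-binding protein, had 569, 594 and 544 in the vegetative apex and 129.5, 138 and 122 in the transition apex. MSRB5, a methionine sulfoxide reductase that repairs oxidised proteins, had 211, 219.6 and 187 in the vegetative apex and 31.96, 33.3 and 32.1 in the transition apex. As in all 173 members, chosen on this difference, the groups did not overlap in these 4. Their transition signals stayed above 30 on every array.

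AT4G27280, which encodes a small EF-hand calcium-binding protein, and AT4G29780 were among the strongest members with a named gene. AT4G27280 read 688, 698 and 698 in the vegetative apex and 55.8, 49.8 and 55.8 in the transition apex. AT4G29780 read 493, 518 and 585, against 22.5, 21.2 and 22.6 in the transition apex. Both had larger signals with young leaves, 1287, 1249 and 1243 for AT4G27280 and 816, 797 and 828 for AT4G29780, so all 3 groups were separate. SFP1, of the sugar transporter family, read 75.2, 63.3 and 77.1 in the vegetative apex and 2.97, 9.97 and 7.41 in the transition apex. The serine carboxypeptidase-like gene scpl31 read 85.9, 87.5 and 90.6, against 11.99, 12.5 and 15.3 in the transition apex. The lectin-like gene AT3G16530 was below the offset on 2 of 3 transition arrays, with 204, 206 and 219.8 in the vegetative apex and 2.00, 15.8 and 1.73 in the transition apex.

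Several families appeared more than once among the named members, a grouping made after their values were seen. How many probe sets of each family the array holds was not counted, so the grouping is a description. Class III peroxidases, which oxidise phenolics in the cell wall, gave AT5G58390 (-3.35), AT5G64110 (-2.06), AT4G11290 (-2.06) and a probe set shared by AT4G37530 and AT4G37520. CC-type glutaredoxins, small redox proteins, gave AT1G06830 (-2.44) and AT2G30540 (-2.44). Lectins gave AT3G16530 (-4.04), the jacalin-related AT1G52100 (-2.12) and a probe set shared by AT1G78860 and AT1G78850. Glycine-rich proteins gave AT5G61660 (-2.94), AT1G67870 (-2.42) and AT2G05540 (-2.21), and TRAF-like proteins AT4G00780 (-3.14) and AT3G20370 (-2.25). Transporters included AT5G52050 (-2.32), of the DTX family, and AT1G59740 (-2.32), of the nitrate and peptide transporter family. Both probe sets of AT1G31710 were members, at -2.55 and -2.15. The 55 named members with a known chromosome lay on all 5. From chromosome 1 to chromosome 5 they numbered 15, 10, 8, 10 and 12. In the same order these were 26.3%, 17.5%, 14%, 17.5% and 21.1% of the named members. Over all probe sets counted by chromosome the shares were 25.7%, 16.4%, 20.4%, 14.6% and 22.4%.

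**Figure D1:**
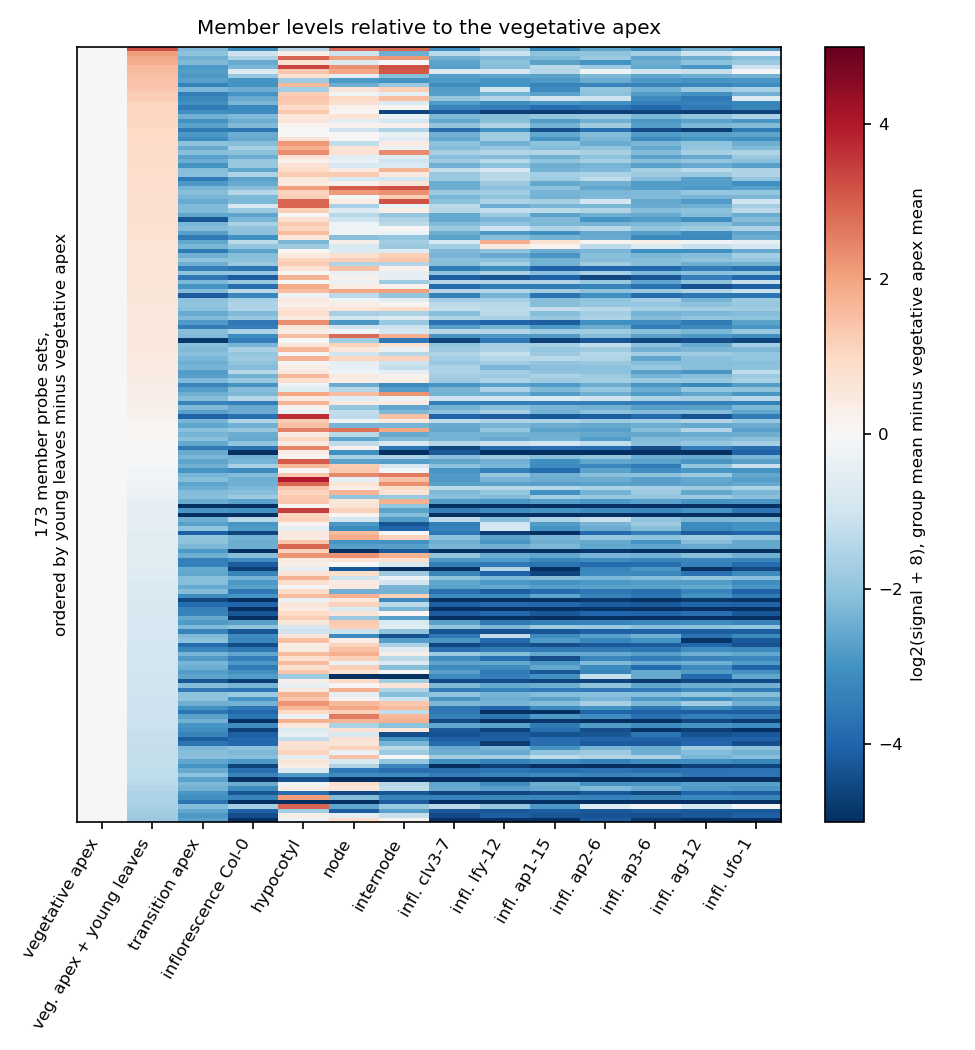
Each row is 1 of the 173 members and each column 1 of the 14 groups; colour gives the group's mean log2(signal + 8) minus that of the vegetative apex. Rows are ordered by the difference with young leaves; the transition column is at -2.01 or lower throughout because the rule requires it, the inflorescence columns are mostly blue as well, and hypocotyl and stem columns are mixed.

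Young leaves on the sample divided the members. With young leaves 69 members were higher than in the bare vegetative apex by at least 0.5 (log2), 65 were lower by at least 0.5 and 39 lay between; the rule used the vegetative apex, so this is a description. The highest was 246596_at, with 156, 169 and 162 in the vegetative apex and 1578, 1796 and 1582 with young leaves. Its transition arrays read 26.8, 25.3 and 35.9, below every array of both vegetative groups. Among members lower with young leaves was AT5G59330, with 593, 556 and 579.9 in the vegetative apex and 189, 177 and 188 with young leaves. Over the 65 lower members the median node minus inflorescence difference was 3.72 and the median internode minus node difference -1.15; over the 69 higher members these were 2.17 and -0.10.

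The first comparison asked whether the low level of the transition apex was also found in a later apex, in groups that the rule did not use. The Col-0 inflorescence apex was set against the vegetative apex with young leaves. All 173 members passed the filter on dim probe sets, also when the vegetative apex arrays were left out of it. In limma's test 172 members were lower at a Benjamini-Hochberg adjusted p under 0.05 and 0 were higher, where 27.7% of the 16041 probe sets tested were lower and 45.2% were higher; 0 members were higher at an unadjusted p under 0.05 too. The median member differed by -2.66 and the median probe set by 0.16 (log2), and 139 members were lower by at least 2, as were 2.39% of all. Both of these groups contain apices like those that chose the members, so the members were not drawn without regard to this contrast. With the mean of the 7 mutants in place of the Col-0 arrays that stood apart in dap, 172 members were lower and 1, 266965_at, was higher, where 29.4% of probe sets were lower.

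The 3 lowest differences were those of 246596_at, 249866_at and 253660_at. For 246596_at the inflorescence arrays read 9.48, 12.3 and 13.9 and the difference was -6.39 ± 0.10 (standard error; adjusted p = 7.76e-24). For 249866_at they read 13.9, 2.99 and 8.85, a difference of -5.91 ± 0.14 (adjusted p = 2.15e-21). For 253660_at the arrays with young leaves read 541, 508 and 498 and the inflorescence arrays 3.09, 2.27 and 2.12, a difference of -5.64 ± 0.09 (adjusted p = 1.01e-23). In none of the 3 did the groups overlap, and the inflorescence signals were near or under the offset.

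The dioxygenase gene AT2G25450 differed by -5.52 ± 0.13, MT1C by -2.44 ± 0.11 and AT5G59330 by -4.39 ± 0.20, each of them lower. MT1C read 329, 291 and 297 with young leaves and 52.3, 66.04 and 35.2 in the inflorescence apex. The calcium-binding gene AT4G27280 differed by -3.54 ± 0.06, and its inflorescence arrays, at 98.8, 108 and 96.3, kept a clear signal. MSRB5 was lower as well, with a difference of -1.56 ± 0.09. The member that was not called was 266965_at, with 19.99, 25.1 and 21.5 with young leaves and 22.7, 26.5 and 16.7 in the inflorescence apex, which overlapped, at a difference of -0.02 ± 0.14 (adjusted p = 0.908). Its signal with young leaves was already low, against 81.2, 88.1 and 88.1 in the bare vegetative apex.

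**Figure D2:**
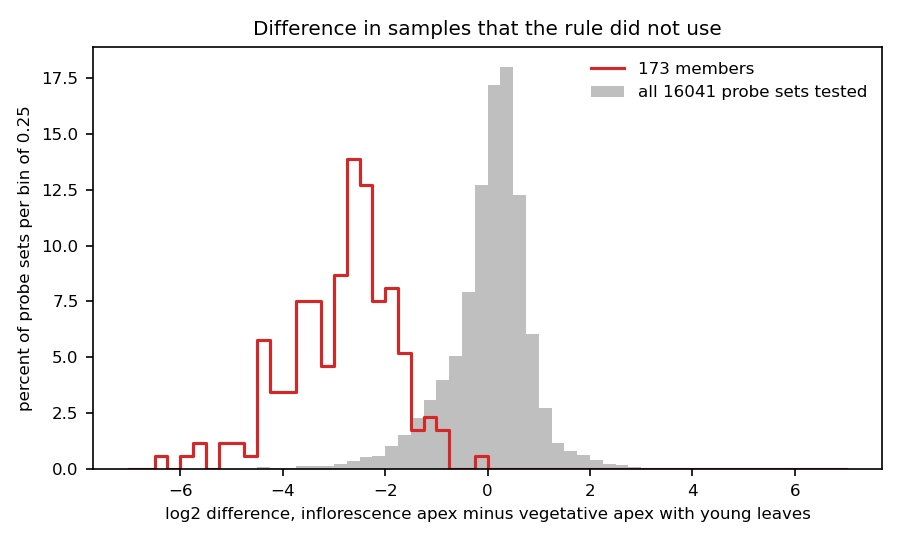
The x axis gives the log2 difference of the Col-0 inflorescence apex minus the vegetative apex with young leaves, and the y axis the percent of probe sets in each bin of 0.25. The 173 members (red line) have a median of -2.66 and lie left of most of the 16041 probe sets tested (grey bars), whose median is 0.16.

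Between the transition and inflorescence apices, 146 of 173 members had an inflorescence mean within 1 (log2) of the transition mean. Only AT2G32150 was at least 2 above it. The share of all probe sets within 1 was not counted, so the 146 are a description. In 49 members the mean inflorescence signal was below the offset, which narrows such differences. The comparison uses a group of the rule and was not tested. Members lower still in the inflorescence apex included AT3G45160, with 57.96, 59.3 and 65.1 in the transition apex and 0.77, 0.31 and 0.31 in the inflorescence apex, and 253660_at, with 198, 167 and 210.1 against 3.09, 2.27 and 2.12. AT5G59330 read 33.97, 44.3 and 39.1 in the transition apex against 1.80, 1.04 and 0.76, again without overlap. The lowest of the 7 Col-0 organs was the transition apex for 81 members and the inflorescence apex for 66, against 20 for the internode and 6 for the node. The rule set the transition apex low, and the lowest organ was not counted over all probe sets, so these counts are a description.

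The hypocotyl, the stem below the cotyledons, was the organ in which the largest number of members peaked. It had the highest mean of the 7 organs for 72 members (41.6%), against 15.2% of all probe sets. The apex with young leaves was highest for 39 (22.5% against 11.7%) and the node for 35 (20.2% against 8.41%). The internode was highest for 16 (9.25% against 20.7%) and the vegetative apex itself for 11 (6.36% against 10.3%). Either later apex was highest for 0, against 13.9% of all probe sets for the transition and 19.9% for the inflorescence apex. The 0 of the transition apex follows from the rule. In 157 members the hypocotyl lay at least 2 (log2) above the transition apex, which the rule set low, so this count is a description. Against the vegetative apex with young leaves, 109 members were higher in the hypocotyl, where 38.1% of probe sets were higher, and 35 were lower, where 33.4% were lower. The median member differed by 0.68 and the median probe set by 0.03. The hypocotyl also had the highest 3'/5' ratio of the organs; with that ratio as a covariate 95 members were higher and 34 lower.

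Among members 266965_at rose most in the hypocotyl, to 693, 718 and 693, a difference of 4.56 ± 0.14 (adjusted p = 4.64e-19). Next came 258791_at, with 105, 104 and 104 in the apex with young leaves and 1914, 1959.7 and 1939 in the hypocotyl (4.11 ± 0.08), and 250832_at (3.89 ± 0.11). The lectin-like AT3G16530 had 261, 249 and 234 with young leaves and 2904, 2667 and 2749 in the hypocotyl, higher by 3.44 ± 0.20 (adjusted p = 1.27e-13). The cytochrome P450 gene AT3G44970 had 64.7, 80.7 and 73.4 with young leaves and 751, 667 and 688 in the hypocotyl, higher by 3.14 ± 0.21, and was at or under 10.98 on every array of the transition and inflorescence apices, node and internode. MT1C was higher by 2.39 ± 0.11, MSRB5 by 1.704 ± 0.09 and SFP1 by 1.59 ± 0.13. For the 4 whose arrays are given in full, the hypocotyl arrays lay above all arrays with young leaves.

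A smaller group was lower in the hypocotyl. The 3 lowest were 246596_at (-4.73 ± 0.10), AT5G59330 (-3.83 ± 0.20) and 255549_at (-3.21 ± 0.15). AT5G59330 read 7.96, 7.12 and 2.28 in the hypocotyl, and its adjusted p was 1.48e-14. It belonged to 4 members that were at least 2 below the vegetative apex in the hypocotyl, node, internode and inflorescence apex; the others were the peroxidase gene AT5G64110, 253660_at and 266383_at. AT5G64110 read 135, 142 and 126 in the vegetative apex and between 3.58 and 15.04 on the 12 arrays of those 4 organs.

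**Figure D3:**
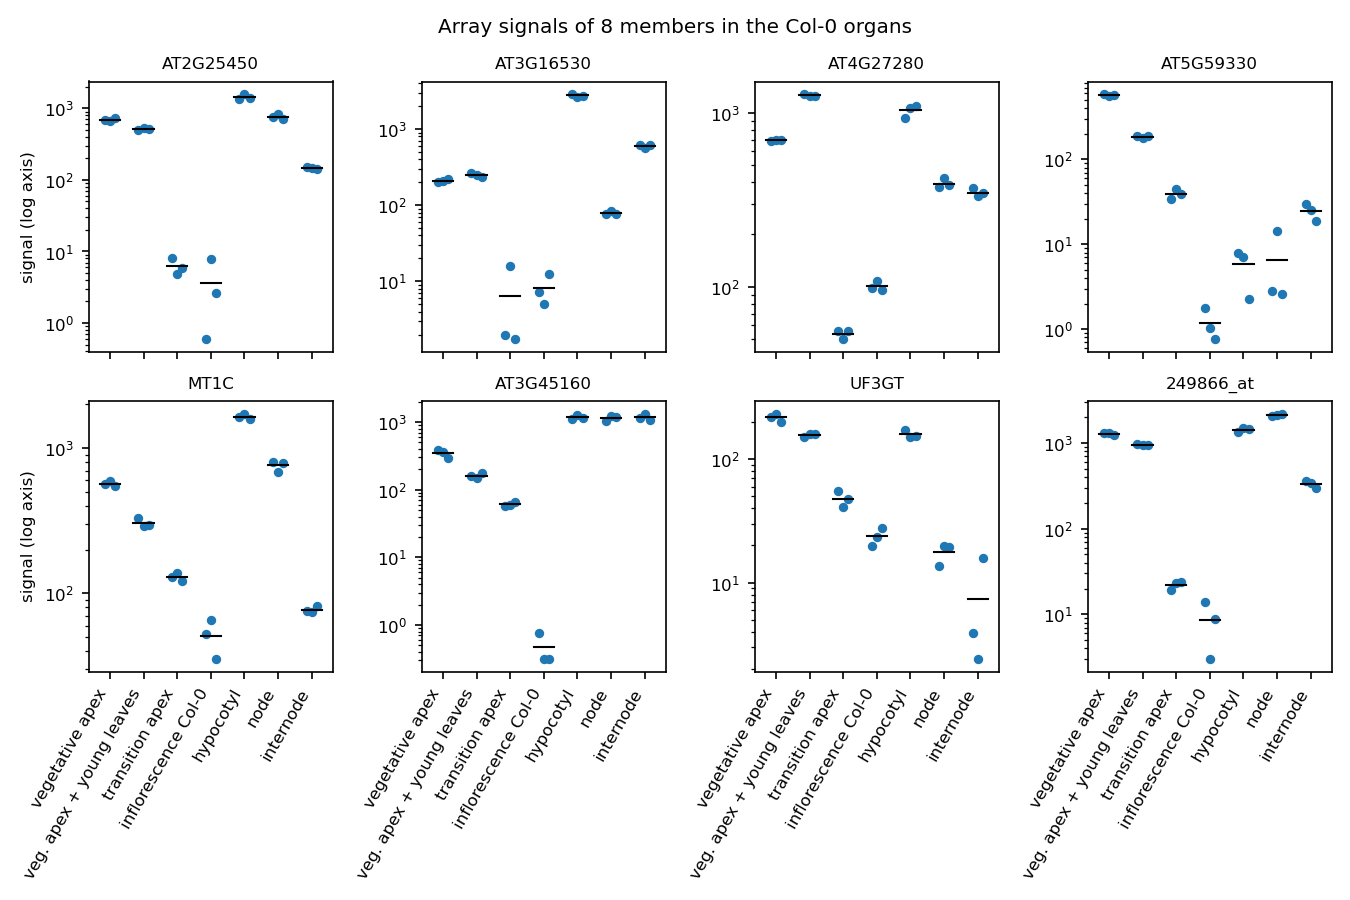
Points are the signals of the 3 arrays of each Col-0 organ on a log axis, and lines their means, for 8 members. AT2G25450, AT3G16530, AT4G27280, MT1C, AT3G45160 and 249866_at are high in the hypocotyl and low in transition and inflorescence apices, AT5G59330 is high only with vegetative apices among the organs plotted, and UF3GT is low in node and internode.

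The node lies on the bolted stem below the inflorescence apex, so this comparison set 2 parts of the flowering shoot against each other. In the node 153 members were higher than in the Col-0 inflorescence apex, where 36.4% of probe sets were higher, and 4 were lower, where 46.1% were lower. The median member was higher by 2.55, against a median of -0.13 over all, and 100 members were higher by at least 2, as were 6.08% of all. Both groups carry the high dap signal, at a mean of 8.07 in the node and 7.71 in the inflorescence apex (log2), and its part in the result was not tested. The 3 highest were AT3G45160 (7.09 ± 0.09), 249866_at (7.06 ± 0.14) and 261335_at (6.45 ± 0.06). AT3G45160 read 0.77, 0.31 and 0.31 in the inflorescence apex and 1032, 1219 and 1195 in the node (adjusted p = 2.26e-26).

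Named members that were high in the node had varied roles. The glutaredoxin gene AT1G06830 read 8.31, 6.77 and 5.58 in the inflorescence apex and 368, 359 and 400.0 in the node, a difference of 4.69 ± 0.11. The pectate lyase gene AT5G63180, whose product cuts wall pectin, read 40.6, 43.4 and 32.8 in the inflorescence apex and 649, 645 and 648 in the node (3.81 ± 0.09). MSRB5 read 62.3, 50.6 and 72.4 in the inflorescence apex and 479.6, 509.7 and 517 in the node (2.88 ± 0.09). In all 3 the node arrays lay above every inflorescence array. The 4 lower members were 266415_at (-3.02 ± 0.20), 266965_at (-0.93 ± 0.14), AT2G05540 (-0.83 ± 0.12) and the peroxidase gene AT4G11290 (-0.51 ± 0.17). AT2G05540, which encodes a glycine-rich protein, read 30.9, 21.02 and 24.2 in the inflorescence apex and 11.6, 10.8 and 9.47 in the node; against the mean of the 7 mutants in place of Col-0 it was higher in the node, by 0.505 (adjusted p = 0.000319), so its direction rests on the 3 Col-0 inflorescence arrays.

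Within the stem most members with a call were lower in the internode than in the node. In the internode 98 members were lower, where 29.8% of probe sets were lower, and 36 were higher, where 27.4% were higher. The median member differed by -0.48, against -0.01 over all, and 26 members were lower by at least 2, as were 0.748% of all. The lowest were 252367_at (-4.64 ± 0.08), 253040_at (-3.85 ± 0.14) and 250832_at (-3.84 ± 0.11). For 252367_at the node arrays read 246, 234 and 237 and the internode arrays 1.99, 2.55 and 1.27 (adjusted p = 9.64e-23), without overlap. AT2G25450 fell from 755, 836 and 718 to 151, 149 and 144 (-2.31 ± 0.13), MT1C to 75.1, 73.9 and 81.97 (-3.17 ± 0.11) and AT1G06830 to 27.3, 36.3 and 28.02 (-3.32 ± 0.11). In the other direction 266746_s_at (2.82 ± 0.10), AT3G16530 (2.79 ± 0.20) and 258791_at (1.93 ± 0.08) were the highest, and AT3G16530 read 77.4, 83.2 and 77.6 in the node and 621, 559 and 614 in the internode. The node arrays carry the high dap signal and the internode arrays do not; the part of this in the result was not tested.

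Over all these organs the levels of the members were not uniform. In the hypocotyl, node and internode alike, 78 members lay at least 2 (log2) above the transition apex. Another 22 were that high in the hypocotyl and less than 1 above it in both stem organs. The rule set the transition apex low, so these counts are a description, and the shares over all probe sets were not counted. AT4G11290, a peroxidase gene, was of the second kind, with 189, 195 and 181 in the hypocotyl, 1.51, 1.78 and 0.92 in the node and 1.17, 1.21 and 1.39 in the internode. SFP1 was of the first kind, with 325, 280.5 and 281 in the hypocotyl, 212, 227 and 231 in the node and 332, 364 and 424 in the internode.

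The families named above did not share 1 organ pattern. The peroxidase gene AT5G58390 read 201, 193 and 201 in the vegetative apex, 113, 107 and 98.9 with young leaves and 3.81, 0.39 and 4.55 in the inflorescence apex, and had 88.5, 97.8 and 103 in the hypocotyl and 93.6, 87.7 and 91.00 in the node. It was highest in the bare vegetative apex, intermediate in hypocotyl and node and lowest of these 5 groups in the inflorescence apex, while the peroxidase gene AT4G11290 peaked in the hypocotyl and AT5G64110 was low in hypocotyl, node and internode. Of the glutaredoxin genes, AT1G06830 read 269.6, 284 and 279 in the hypocotyl and peaked in the node, and AT2G30540 read 137, 142 and 142 in the hypocotyl, 30.2, 30.3 and 27.5 in the node and 1.39, 1.68 and 1.80 in the internode. AT2G30540 was lower in the internode than in the node, with a log2 difference of -1.96 ± 0.12. Of the TRAF-like genes AT4G00780 read 13.9, 20.2 and 16.7 in the inflorescence apex and 639.5, 594 and 709 in the node (4.72 ± 0.08), without overlap.

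For the transporter genes AT1G59740 and AT5G52050 the hypocotyl was again set against the apex with young leaves. AT1G59740 read 73.9, 69.1 and 70.8 with young leaves and 434, 445 and 418 in the hypocotyl (2.47 ± 0.09), with 116, 104 and 121 in the node. AT5G52050 read 52.4, 47.3 and 52.2 with young leaves, 1.62, 1.99 and 2.19 in the inflorescence apex and 49.3, 77.7 and 76.5 in the hypocotyl. Its hypocotyl and young leaf arrays overlapped, and the difference was 0.35 ± 0.14 (adjusted p = 0.027). Its inflorescence difference was -2.56 ± 0.14. The serine carboxypeptidase-like gene scpl31 had its highest signals in the internode, 169, 139 and 122, against 87.2, 88.9 and 96.9 in the node (0.605 ± 0.11).

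Pathway lists put the members beside their neighbours. Only 48 of 221 listed genes had a probe set of their own in the annotation, and only UF3GT and AT4G14090 among the members were on a list, that of anthocyanin and flavonoid genes. Of its 18 genes 4 were measured: the 2 members, DFR, left out by the rule, and AT5MAT, an anthocyanin malonyltransferase gene. All 4 were lower in the Col-0 inflorescence apex than in the apex with young leaves, UF3GT with a difference of -2.38 ± 0.19, AT4G14090 with -2.297 ± 0.17, AT5MAT with -1.84 ± 0.16 and DFR with -3.64 ± 0.11. In the node no call was made, against the inflorescence apex, for UF3GT (-0.31 ± 0.19, adjusted p = 0.138) or AT4G14090 (-0.05 ± 0.17, adjusted p = 0.799), whose node arrays read 13.7, 19.7 and 19.6 for UF3GT and 22.3, 14.04 and 13.2 for AT4G14090; AT5MAT was lower there and DFR higher by 0.28. In the hypocotyl AT4G14090 was higher than with young leaves, at 336, 306 and 309, and UF3GT was not called (adjusted p = 0.924).

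For aliphatic glucosinolates 4 of 23 listed genes had a probe set and 3 were tested, of which AT2G25450 is not one. BCAT4, 1 of these 3, met the rule's conditions and was left out by name, so its values are not independent of the rule. All 3 were lower in the inflorescence apex than with young leaves, higher in the node than in the inflorescence apex and lower in the internode than in the node. The glucosyltransferase gene AT2G31790, which was no member, differed by -1.45 ± 0.07, 2.76 ± 0.07 and -2.45 ± 0.07 in these 3 comparisons, and AT2G25450 by -5.52 ± 0.13, 6.104 ± 0.13 and -2.31 ± 0.13. Of 6 measured genes of rapid stress responses 5 were tested, and all 5 were lower in the inflorescence apex and higher in the node. Among these 5, STZ and ORA47 also met the rule's conditions and were left out by name. Of 7 measured photosynthesis genes, a mark of green tissue, 6 were lower and 1 higher in the inflorescence apex, and 7 were higher in the node. The summed photosynthesis signal was 7164 in the vegetative apex, 13363 with young leaves and 4492 in the transition apex; the part of green tissue in the members' values was not tested.

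The mutants asked whether floral genes alter these transcripts in the inflorescence apex. Members were low there in every genotype: the median over the 173 was 4.52 (log2) in Col-0 and 4.29 to 4.61 in the mutants, against 7.53 in the vegetative apex. Only 91 members passed the filter on these 24 arrays and 82 were not tested; a member that passed through 1 genotype where it is high had to differ, so the counts that follow describe the 91. Across the 8 genotypes limma's F test called 86 of 91, where 70.1% of 14627 probe sets were called. Of the 86, 31 were highest in lfy-12, 15 in ap2-6, 15 in ufo-1, 8 in clv3-7, 8 in ap1-15, 4 in ag-12, 3 in ap3-6 and 2 in Col-0. Over all 10251 probe sets called by F, the share highest in lfy-12 was 12.2%, against 36% of the 86 members; in ap2-6 it was 9.46% against 17.4% and in ufo-1 9.01% against 17.4%. In the other 5 genotypes it was 10.7% to 18.7% over all and 2.33% to 9.3% of the members. These shares are given as a description, since members that passed through 1 genotype had to differ.

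Against Col-0, in contrasts that share its 3 arrays, lfy-12 had 41 members higher and 11 lower, where 13.3% and 13.7% of probe sets were. LEAFY is a transcription factor that specifies floral meristems. In ap2-6, a mutant of the sepal and petal identity gene APETALA2, 36 were higher and 8 lower, where 10.2% and 10.5% were. In ufo-1, a mutant of an F-box partner of LEAFY, 28 were higher and 10 lower (9.4% and 9.38%). In clv3-7, a mutant of the gene for the peptide that restrains the stem cell pool, 22 were higher and 10 lower (10.4% and 8.7%). In ap1-15 the counts were 22 and 25 (14% and 13.5%), in ap3-6 17 and 18 (11.3% and 12.5%) and in ag-12 13 and 22 (12.4% and 14.4%). The median over the 91 was 0.29 in lfy-12 and 0.30 in ap2-6, and between -0.09 and 0.09 in the other 5. The mutant arrays do not carry the high dap signal of Col-0, whose part in these counts was not tested; the values against the other mutants are given with the alternatives.

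The strongest rises were in lfy-12. There 254283_s_at read 182, 203 and 220.4, against 10.99, 13.7 and 20.8 in Col-0, a difference of 3.196 ± 0.18 (adjusted p = 2.19e-13). For 258321_at the signals were 602, 649.7 and 622 in lfy-12 and 64.5, 64.8 and 61.7 in Col-0 (3.14 ± 0.10). Both anthocyanin members rose: UF3GT to 129, 114 and 105 from 19.9, 23.5 and 27.6 (1.97 ± 0.13, adjusted p = 3.93e-12), and AT4G14090 to 83.8, 93.4 and 83.7 from 17.2, 18.2 and 15.6 (1.92 ± 0.15). The arrays of lfy-12 lay above all Col-0 arrays in each of these. All 4 measured genes of the anthocyanin list were higher in lfy-12, DFR by 1.68 ± 0.14 and AT5MAT by 1.25 ± 0.17, and so were all 7 of the photosynthesis list, with a median of 0.81. The photosynthesis list was not high in lfy-12 alone: 7 of 7 were higher in ag-12 (median 0.66), 5 of 7 in ap3-6 and in ufo-1, 1 in ap2-6 and 0 in clv3-7, while in ap1-15 all 7 were lower (median -0.34). Of the anthocyanin list 3 of 4 were higher in ap3-6 and 2 in ap2-6, 2 were lower in clv3-7 and in ag-12, and 0 were called in ap1-15 and ufo-1. AT4G27280 (1.299 ± 0.08) and AT4G29780 (0.92 ± 0.11) were higher in lfy-12 as well, while 265121_at (-1.06 ± 0.18) and 260385_at (-0.79 ± 0.12) were the lowest there. AT4G27280 was also higher in ap2-6 (1.37), ap1-15 (0.90), clv3-7 (0.83), ufo-1 (0.77) and ap3-6 (0.52), and was not called in ag-12. AT4G29780 was lower in ap3-6, ap1-15, ufo-1 and ag-12. 260385_at was also lower in ap1-15 (-0.64), ap2-6 (-0.62), ufo-1 (-0.62), ap3-6 (-0.47) and ag-12 (-0.39).

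In ap3-6, a mutant of the petal and stamen identity gene APETALA3, 254283_s_at (1.78 ± 0.18), 258321_at (1.56 ± 0.10), UF3GT (0.73 ± 0.13) and AT4G14090 (0.75 ± 0.15) were higher than in Col-0. In ap2-6, 254283_s_at (1.38 ± 0.18) and AT4G14090 (0.45 ± 0.15) were higher too, and UF3GT, at 0.35 ± 0.13, did not pass (adjusted p = 0.0506). In clv3-7 the opposite sign was found for 254283_s_at (-1.04 ± 0.18) and UF3GT (-0.55 ± 0.13); AT4G14090, at -0.41 ± 0.15, did not pass (adjusted p = 0.0529). In ag-12 all 3 were lower, with differences of -0.84 ± 0.18 for 254283_s_at, -0.36 ± 0.13 for UF3GT (adjusted p = 0.0357) and -0.56 ± 0.15 for AT4G14090 (adjusted p = 0.00595). 258321_at was lowest in Col-0, and in ap1-15 it was higher by 2.09 ± 0.10 and in ap2-6 by 1.52 ± 0.10. Against the mean of the other 6 mutants it did not pass in ap2-6 (-0.036, adjusted p = 0.796) or ap3-6 (0.011, adjusted p = 0.93) and was lower in ag-12 (-0.485, adjusted p = 1.37e-05), so these 3 calls rest on the Col-0 arrays.

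MSRB5 was lower than in Col-0 in 5 mutants and higher in 1. It read 62.3, 50.6 and 72.4 in Col-0, 14.7, 21.6 and 12.6 in ap1-15, 14.2, 16.3 and 12.7 in ap2-6 and 9.64, 11.7 and 11.01 in ap3-6. These were differences of -1.53 ± 0.14, -1.63 ± 0.14 and -1.88 ± 0.14 (adjusted p = 2.28e-09, 1.32e-09 and 5.89e-11), and the arrays of these mutants lay below every Col-0 array. MSRB5 was also lower in lfy-12 (-0.67 ± 0.14, adjusted p = 0.000738) and clv3-7 (-0.41 ± 0.14, adjusted p = 0.0395), and higher in ufo-1 (0.52 ± 0.14, adjusted p = 0.00925). MT1C was lower in ag-12 (-1.59 ± 0.17), a mutant of the stamen and carpel identity gene AGAMOUS, in ufo-1 (-0.86 ± 0.17) and in lfy-12 (-0.57 ± 0.17, adjusted p = 0.0116), and higher in ap1-15 (0.47 ± 0.17, adjusted p = 0.035). In ap2-6 the highest member was 266415_at, with 628, 677 and 608 against 214, 209.5 and 198 in Col-0 (1.58 ± 0.07). It was also higher in ap3-6 (0.28) and ufo-1 (0.21), and lower in ag-12 (-1.05), lfy-12 (-0.65), clv3-7 (-0.38) and ap1-15 (-0.25). The next lowest in ap2-6 after MSRB5 was 257641_s_at (-1.003 ± 0.17). That probe set was also lower in ap1-15 (-0.98) and ap3-6 (-0.63), and higher in ufo-1 (0.62).

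The remaining extremes were probe sets with no named gene. In ap1-15, a mutant of the floral meristem and sepal gene APETALA1, 245306_at was the highest member (2.14 ± 0.09) and 265121_at was low (-1.39 ± 0.18). In the other 6 mutants 245306_at was higher than in Col-0 as well, from 0.28 ± 0.09 in clv3-7 to 2.42 ± 0.09 in lfy-12. All these differences share the same Col-0 arrays. In ufo-1, 267083_at read 307, 311 and 286 against 78.7, 70.9 and 87.2 (1.84 ± 0.10), without overlap. It was also higher in ap1-15 (1.58 ± 0.10), ap2-6 (1.49 ± 0.10), lfy-12 (1.07 ± 0.10) and clv3-7 (0.57 ± 0.10). In ag-12 (-0.99 ± 0.10) and ap3-6 (-0.59 ± 0.10) it was lower. In ufo-1 266965_at was higher (1.54 ± 0.17), as it was in ap3-6, ap2-6 and ag-12, while in ap1-15 it was lower (-1.21 ± 0.17). In ufo-1 261892_at was lower (-0.84 ± 0.16), as it was in clv3-7, ap1-15, ap3-6 and ag-12. 251497_at was the highest called member in clv3-7 (1.43 ± 0.26) and in ag-12 (1.27 ± 0.26), from 6.25, 1.24 and 1.57 in Col-0. These signals are near the offset. Its own largest rise was in lfy-12 (1.79 ± 0.26), and it was also higher in ufo-1 (1.07 ± 0.26) and ap3-6 (0.98 ± 0.26). In ap1-15 and ap2-6 it was not called. Against the mean of the other 6 mutants 251497_at did not pass in clv3-7 (0.465, adjusted p = 0.0731) or ag-12 (0.28, adjusted p = 0.308), and 261892_at did not pass in ufo-1 (-0.324, adjusted p = 0.054). In clv3-7, 254687_at was higher (0.999 ± 0.17) and 259382_s_at lower (-0.84 ± 0.24, adjusted p = 0.0139). The call of 259382_s_at did not pass without Col-0 replicate 1 (adjusted p = 0.0519) or clv3-7 replicate 3 (adjusted p = 0.0916). 254687_at was also higher in ap3-6 (1.19), ap2-6 (0.71), ufo-1 (0.59) and ag-12 (0.48), and lower in ap1-15 (-0.93). 259382_s_at was also lower in ag-12 (-0.79) and ap1-15 (-0.78), and higher in ap2-6 (0.98). 253061_at was lower in 5 mutants: ag-12 (-1.56 ± 0.12), ap3-6 (-1.33 ± 0.12), ap2-6 (-0.698 ± 0.12), ap1-15 (-0.63 ± 0.12) and lfy-12 (-0.33 ± 0.12, adjusted p = 0.0402).

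**Figure D4:**
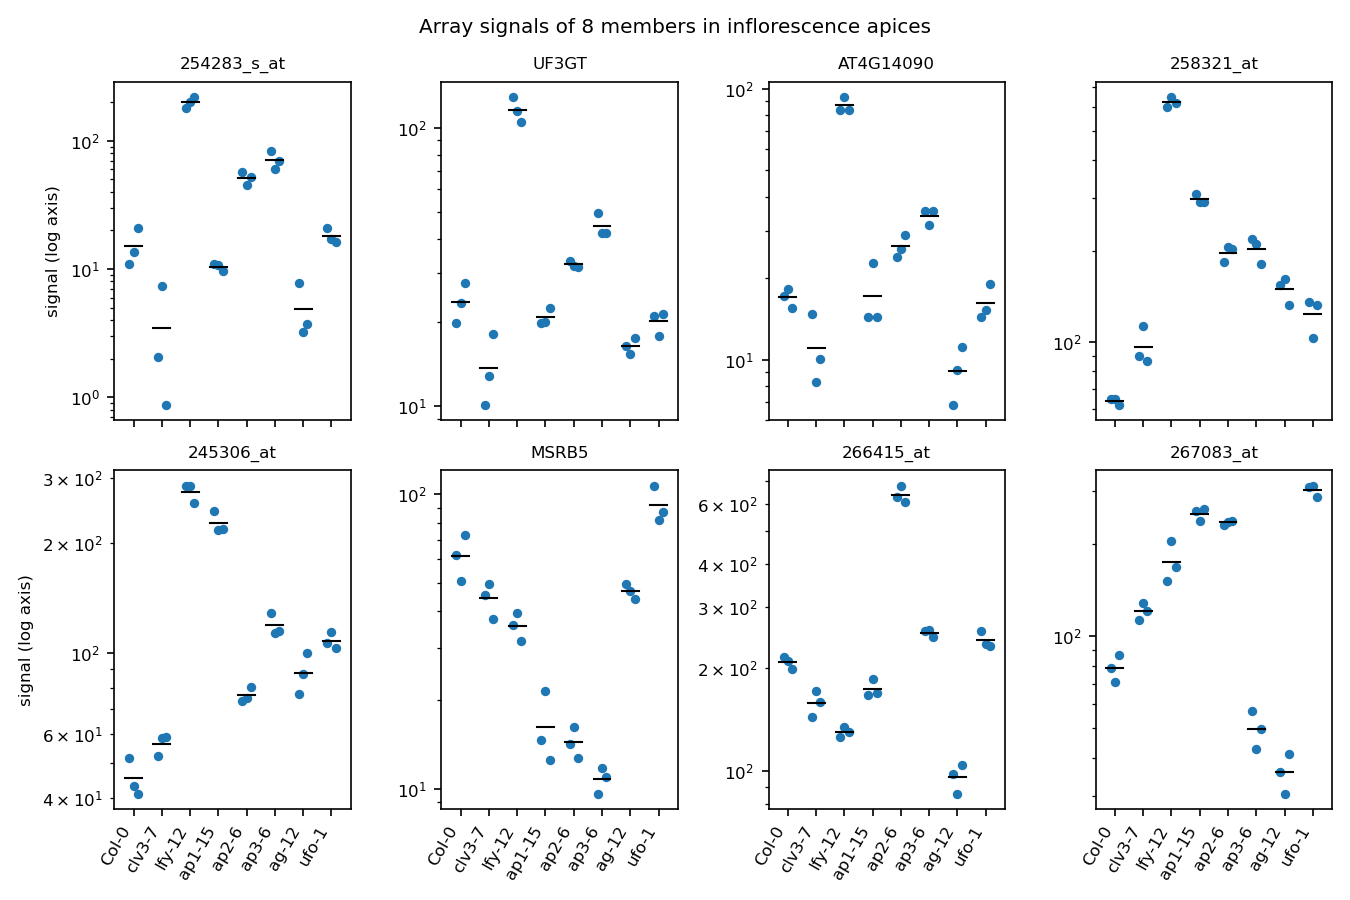
Points are the signals of the 3 inflorescence apex arrays of each genotype on a log axis, and lines their means, for 8 members. 254283_s_at, UF3GT, AT4G14090 and 258321_at are highest in lfy-12, MSRB5 is low in ap1-15, ap2-6 and ap3-6, 266415_at is highest in ap2-6 and 267083_at in ufo-1.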

How the data were processed

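Total RNA of 42 samples was labelled with biotin and hybridised to 1-colour Affymetrix arrays, 1 per sample. Per the submitters' processing notes the authors used MAS5; the deposited values are a linear signal intensity per probe set, whose mean after trimming 2% at each end was 100.0 on every array. Settings and detection calls of MAS5 are not stated in the labels. The number of arrays, not a depth, limits the precision.

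From these, log2(signal + 8) was computed; 64 control probe sets were left out. Probe sets above the 40th percentile of their array on at least 3 arrays of a fit were tested: 16041 over the 21 Col-0 organ arrays (14 residual degrees of freedom) and 14627 over the 24 inflorescence arrays (16). Group means were fitted with limma 3.58.1 in R 4.3.3 (lmFit, eBayes with trend), two-sided, with p-values adjusted by Benjamini-Hochberg over each contrast's probe sets; calls needed an adjusted p under 0.05. Errors of differences are limma's standard errors, n = 3 per group. The scripts were tested on simulated data. Groups came from the labels. Contrasts with the vegetative or transition apex were not tested, since these chose the members. Replicate letters did not pair samples (same-letter correlations of -0.09 to 0.07). Members and lists were chosen with earlier results of these data known. Named were members with a symbol, on a list, at the limits, the 8 with the highest vegetative signal, and the 3 highest and lowest per organ contrast (2 per mutant) among those called; other members were named after their values were seen. Gene names come from the platform annotation and RefSeq's TAIR10.1 tables. Promoter and protein sequences were not used here. Normalization, offset, filter, variance model, arrays in the fit, reference group, replicate block, single replicates and RNA integrity were varied. Figures were drawn with matplotlib 3.10.9.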

Additional observations from a re-analysis of the deposited data

How the results depend on the processing

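The number of members, 173, was 65 with an offset of 32, 297 with a limit of -1.5, 93 with a limit of -2.5, 57 where only probe sets that match a single gene counted, and 171 to 176 with each replicate left out. Those 57, with fewer probe sets tested, gave 57 lower in the inflorescence apex, 41 higher and 7 lower in the hypocotyl, 49 higher and 2 lower in the node, and 12 higher and 29 lower in the internode; 25 of them tested across genotypes gave 6 calls in clv3-7, 11 in lfy-12, 13 in ap1-15, 10 in ap2-6, 10 in ap3-6, 11 in ag-12, 9 in ufo-1 and 24 by F. With a 60th percentile filter 38 members were tested across genotypes, with 19, 29, 22, 25, 22, 21 and 17 calls in the same order and 36 by F. With all 42 arrays in the fit all 173 members were tested and 71 were called in ap1-15, 60 in ap3-6, 56 in ag-12, 59 in ufo-1 and 133 by F. With only the groups compared 1 member was lower in the node; with the mean of the 7 mutants as the inflorescence apex 1 member was higher there than with young leaves. The cause of the change with all 42 arrays was not tested.

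Leaving out 1 replicate in turn gave 172 lower and 0 higher in the inflorescence apex, 107 to 111 higher and 32 to 38 lower in the hypocotyl, 151 to 154 higher and 4 to 6 lower in the node, 34 to 36 higher and 94 to 97 lower in the internode, 84 to 86 by F, and 23 to 28 in clv3-7, 42 to 46 in lfy-12, 40 to 45 in ap1-15, 39 to 41 in ap2-6, 31 to 35 in ap3-6, 29 to 33 in ag-12 and 28 to 33 in ufo-1. With a replicate block by letter the counts were 172 lower in the inflorescence apex, 111 higher and 36 lower in the hypocotyl, 153 higher and 4 lower in the node and 36 higher and 98 lower in the internode; same-letter correlations passed 0.1 in every pair in 0 of 11 contrasts, and the block changed no call by over 1.5 times. Against the mean of the other 6 mutants 37 members were called in clv3-7, 55 in lfy-12, 50 in ap1-15, 42 in ap2-6, 49 in ap3-6, 46 in ag-12 and 41 in ufo-1. Of 884 values of named members under alternatives, 875 kept direction and call, 6 lost the call and 3 turned: AT2G05540 in the node (0.505) with the mean of the 7 mutants, and 258321_at in ap2-6 (-0.036) and ag-12 (-0.485) against the other 6 mutants. The calls lost were, against the other 6 mutants, those of 251497_at in clv3-7 and ag-12, 258321_at in ap3-6 and 261892_at in ufo-1, and 259382_s_at in clv3-7 without either of 2 replicates. Signals near the offset limit the size of many differences. The counts of promoter motifs that were planned were not run. The alternative with RNA integrity was chosen after seeing the data.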
